A study of Mus musculus with 3 samples.

Results

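The libraries labelled siBptf were made from primary mouse embryonic fibroblasts (MEFs) that received pooled siRNAs against Bptf and were then reprogrammed for 6 days. They were chosen by the column names of the count table, which gave 3 siBptf libraries out of 127 used here, and they were compared with 3 libraries of a non-targeting siRNA (nt), with 5 libraries labelled Mock as a second control, and with 95 libraries of 32 other siRNAs. The 5 Mock libraries come from 3 replicate numbers, since replicates 1 and 2 each have 2 columns of that name. The labels do not say whether such pairs are separate cultures, and the fit took all 5 as separate libraries. A further 21 libraries followed untransfected cells each day from Day00 to Day06. The study asked how chromatin-associated factors shape the early phase of reprogramming, and messenger RNA was counted from its 3′ end with unique molecular identifiers by CEL-Seq2. All cells, controls included, were wild-type BL6 fibroblasts of passage 1 or 2 that carried lentiviruses for the tet-STEMCCA cassette (Oct4, Sox2, Klf4 and c-Myc) and for rtTA, the transactivator that switches the cassette on. Cells given siRNA received 40 nM of it with RNAiMAX, pooled for each targeted gene. The paper calls the Mock cells mock transfected and does not say what they received. Reprogramming was started with 2 µg/mL doxycycline, 3 µM Chiron, 0.25 µM Alk5 inhibitor, ascorbic acid and LIF. The replicate number stands for 1 sequenced pool of barcoded libraries, and nothing in the labels ties the replicates to separate embryos, so the p-values below measure the spread between these libraries.

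BPTF is the largest subunit of NURF, a chromatin remodeller in which an ISWI motor such as SMARCA1 slides nucleosomes along DNA. A PHD finger and a bromodomain in BPTF bind methylated and acetylated histone tails, which brings the complex to active promoters. In mice the gene is needed for early embryonic development, and in cultured cells BPTF has been linked to transcription driven by MYC, a member of the reprogramming cassette.

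The guide strands of the Bptf siRNAs are shown with their positions on the target. The supplier listed them under the older symbol Falz, and 2 of the 3 siRNAs in the pool had sequences in the table used here. Capitals mark the seed, bases 2 to 8 from the 5′ end.
siBptf guide 1: aAGACACCuagaggucgcctt
siBptf guide 2: aUGUGUACauagcagcucctt
Both match the 3′ UTR in the last exon (exon 30 of 30) of the transcript Bptf-203, on the minus strand of mm10 at chr11:107035253-107035271 for guide 1 and at chr11:107035220-107035238 for guide 2. The sites lie 2170 and 2137 bases before the transcript's end and are present in 3 of the 6 coding transcripts of Bptf in GENCODE vM21. A 3′ tag of Bptf-203 is read downstream of both sites, and coding transcripts without the sites have no match to these 2 siRNAs. The site of the remaining siRNA is not known here. Whether these positions bear on the Bptf counts was not tested.

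The Bptf transcript was not shown to be lower in the libraries labelled siBptf. It had 5, 3 and 3 counts in siBptf replicates 1, 2 and 3, and 3, 6 and 11 counts in the nt replicates. The 11 counts compare with 8.44 expected from the other transfected libraries at the same depth, a ratio of 1.3 with a 95% exact Poisson interval of 0.651 to 2.33, and against nt alone the ratio was 1.14 (0.570 to 2.04). The intervals cover counting error only, and without replicate 1 the first ratio was 0.972. The 8 measured genes of NURF and related ISWI complexes gave no call against nt. Their log2 fold changes ran from -0.14 for Baz2b to 1.25 for Rsf1, with a smallest adjusted p of 0.481 (edgeR's quasi-likelihood test, Benjamini-Hochberg adjustment). Knockdown of the target is not visible in these counts, and directions below are those of libraries identified by their label alone.

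The siBptf libraries were shallow. They held 30798, 43807 and 66570 counts, against 75100, 80136 and 143156 in nt, 38925 to 83089 in Mock, and 29656 to 235292 in all libraries used (median 73279). A further 2 libraries with 6403 and 7981 counts were left out, as they were by the authors. Levels below are TMM-scaled CPM, counts divided by the library's TMM-adjusted total over the tested genes, and replicate libraries of one group differed by more than sampling noise. Of 12 fibroblast markers, 12 had counts in siBptf, with a summed level of 1915 to 2376 CPM, against 2394 to 3364 in nt and 2805 to 4468 in Mock. Muscle markers were at 0 (0 of 6), and macrophage and endothelial markers had 2 counts and 1 count over the 3 libraries. Neural markers summed to 207 to 296 CPM in siBptf, 117 to 131 in nt and 77.4 to 174 in Mock, most of it Tubb3. The part of these marker levels in the results was not tested.

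Against nt, 35 of 3013 tested genes passed an adjusted p of 0.05, which is 1.16% of all genes tested. Of these, 33 were lower (1.1%) and 2 higher (0.0664%) in siBptf, while the median log2 fold change over all genes was -0.04. The 33 fall into a few families. There were 9 mitochondrially encoded genes, 3 nuclear copies of mitochondrial genes, Npm1 with 4 copies, Hsp90aa1 with 2 copies, 4 ribosomal protein genes or their copies, and 9 others. Copies were not assigned for all tested genes, so families that include copies have no share over all genes beside them. In these bulk cultures, fewer cells of a type and less RNA per cell cannot be told apart. In 30 of the 33 lower genes each siBptf library lay below each nt library, an arrangement seen in 6.84% of all genes (the reverse was seen in 5.58%), and in 19 of the 33 each siBptf library lay below each Mock library, as in 4.45% of all genes. The 33 were called from these same siBptf and nt libraries, so their separation was largely set by the choice and adds no support. At an unadjusted p under 0.05 there were 283 genes. Without the replicate block the count fell to 10 (0 higher, 10 lower), which were Dcn, Spp1, Hsp90aa1, Gm17060, Gm5611, Gm14776, mt-Rnr1, mt-Rnr2, mt-Nd4 and mt-Cytb, and leaving out a replicate number gave 13 to 23. The split of directions also turned on the tool, with 10 higher and 40 lower in DESeq2, 17 higher and 34 lower when only the compared conditions were fitted, and 11 higher and 7 lower in limma on the deposited log2 values. Of the 35 calls, limma kept 7, those of Agtr2, Dcn, Spp1, Gm17060, Gm5611, mt-Rnr2 and Oaz1.

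**Figure D1:**
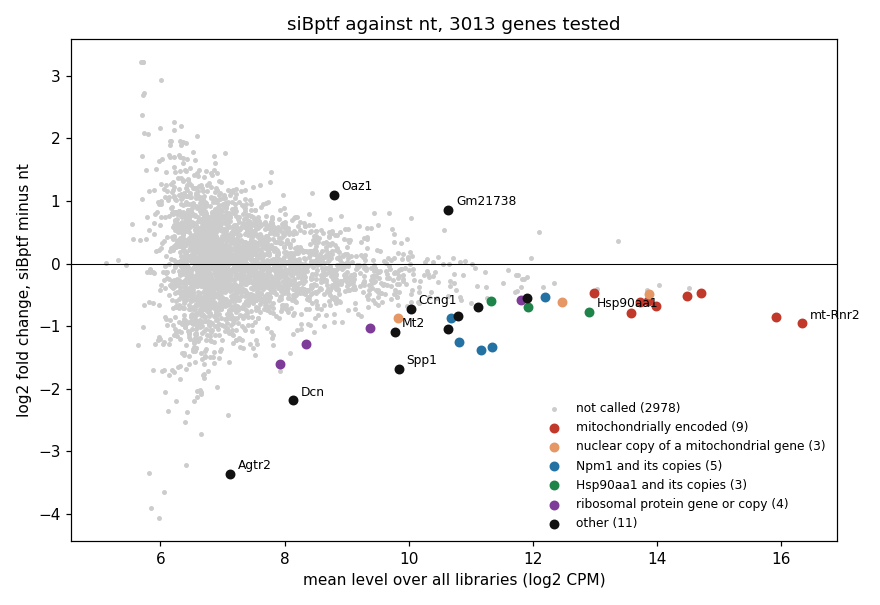
Log2 fold change of siBptf against nt (vertical) plotted against the mean level over all libraries in log2 CPM (horizontal), with 1 point for each of 3013 genes and the 35 called genes coloured by family. The called genes lie below 0 except Oaz1 and Gm21738, and those with the highest levels are mitochondrially encoded.

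Among the called genes, Agtr2, Dcn and Spp1 had the largest falls. Agtr2, the type 2 angiotensin receptor (chrX:21484544-21489164), was at 0, 22.8 and 15.2 CPM in siBptf replicates 1 to 3 and at 183, 165 and 147 CPM in nt. All 3 siBptf libraries lay below all nt and all Mock libraries, which held 103 to 317 CPM. The siBptf values rest on 2 counts against 40 in nt, a ratio of 9.46-fold lower with a 95% counting interval of 2.45 to 80.8, and the fitted log2 fold change was -3.36 ± 0.86 (SE, adjusted p = 0.0162). The call was lost when any replicate number was left out.

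Dcn encodes decorin, a small proteoglycan that binds collagen fibrils and TGF-β (chr10:97479609-97518143). It measured 68.9, 45.6 and 91.2 CPM in siBptf, 416, 239 and 335 CPM in nt and 149 to 634 CPM in Mock. No siBptf library reached the lowest control library. The log2 fold change was -2.18 ± 0.45 against nt (adjusted p = 0.000597), -2.52 ± 0.43 against Mock and -1.86 ± 0.40 against the other siRNAs, and the call held without each replicate in turn. The counts were 10 in siBptf and 82 in nt, a ratio of 3.88-fold lower (2.01 to 8.39).

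Spp1 encodes osteopontin, a secreted matrix and signalling protein (chr5:104435118-104441050). Its level was 207, 433 and 334 CPM in siBptf, 1582, 793 and 923 CPM in nt and 657 to 1099 CPM in Mock, again with no overlap. The log2 fold change was -1.68 ± 0.28 against nt (adjusted p = 6.46e-06), -1.46 ± 0.28 against Mock and -1.44 ± 0.24 against the other siRNAs. It was called in every setting run, and it overlaps the annotated gene Gm42793 on the same strand. Of the 33 siRNA conditions, siBptf had the lowest mean of Agtr2, Dcn and Spp1, which were picked for their falls in these same siBptf libraries. The next lowest condition means were 31.5 CPM for Agtr2 (siWdr5), 114 CPM for Dcn (siMtf1) and 463 CPM for Spp1.

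No other gene of the fibroblast matrix list passed against nt. Of 27 tested, 1 (Dcn) was called lower, against 1.1% of all genes, and none higher, and the list's median log2 fold change was -0.31 against -0.04 over all genes. The medians were -0.68 against Mock and -0.69 against the other siRNAs, with 2 genes lower and 23 of 27 below 0 in each. Over all genes 3.09% and 1.86% were called lower, 50.4% and 48.6% were below 0, and the medians were -0.01 and 0.02. Col1a2, a chain of type I collagen named after its values were seen, was called against the other siRNAs at a log2 fold change of -1.13 ± 0.29 (adjusted p = 0.0108). Lum, which encodes lumican, another small collagen-binding proteoglycan, was at 138, 296 and 91.2 CPM in siBptf and 849, 284 and 245 CPM in nt. The groups overlapped, and the log2 fold change of -1.29 ± 0.43 did not pass (adjusted p = 0.145). Sparc and Vim, a matrix protein and the main intermediate filament of these cells, had means of 427 ± 69.4 and 691 ± 191 CPM in siBptf and 413 ± 60.6 and 630 ± 104 CPM in nt (SD, n = 3 each). Of 32 contractile and mesenchymal genes, S100a6, a calcium-binding protein, was the one called, at a log2 fold change of -0.56 ± 0.15 (adjusted p = 0.0194). That call was lost when any replicate number was left out, under RLE scaling, without the block, without mitochondrial genes and in limma, and the list's median log2 fold change was 0.12 against nt but -0.10 against Mock and -0.29 against the other siRNAs.

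**Figure D2:**
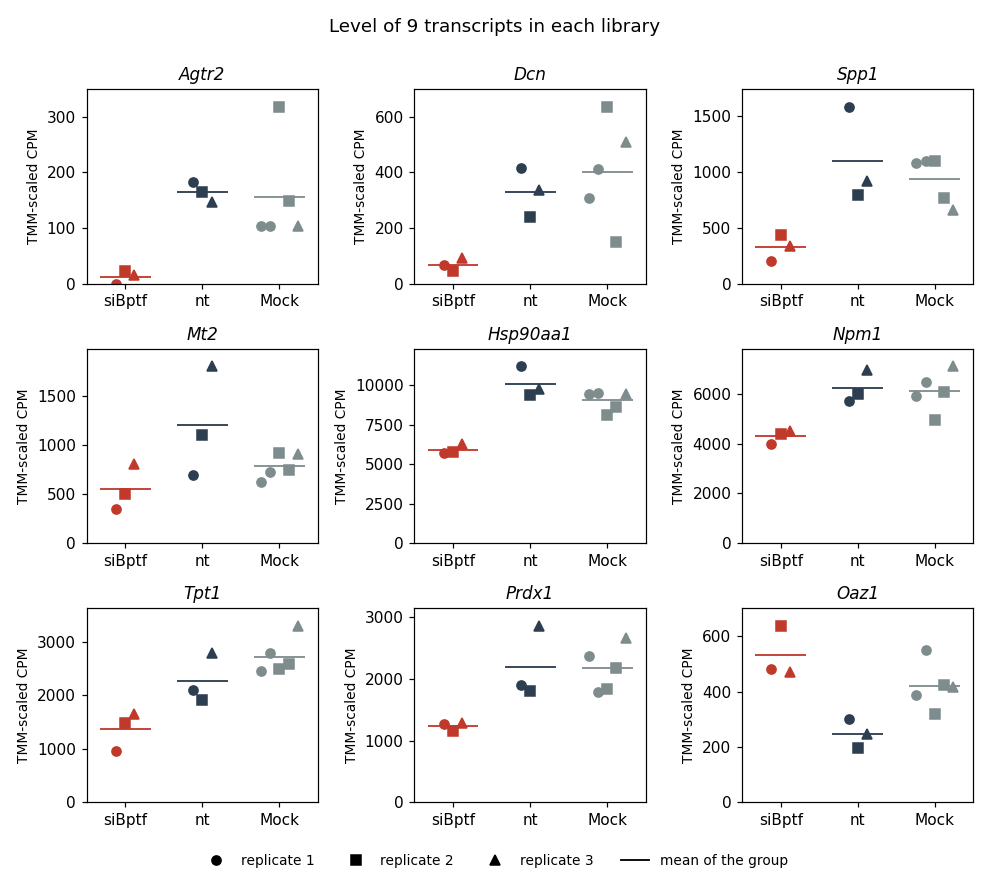
Levels of 9 transcripts in each siBptf, nt and Mock library, in TMM-scaled CPM on linear axes from 0; symbols give the replicate number and lines the group mean. For Agtr2, Dcn, Spp1, Hsp90aa1, Npm1, Tpt1 and Prdx1 the siBptf points lie below all nt and Mock points, while the Mt2 points overlap and Oaz1 is above nt but not above Mock.

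Npm1 (nucleophosmin), a nucleolar chaperone of ribosome assembly, was lower together with 4 processed pseudogenes that resemble it. Npm1 measured 3994, 4377 and 4514 CPM in siBptf, 5729, 5997 and 6977 CPM in nt and 4958 to 7120 CPM in Mock. Every siBptf library was below every control library. Its log2 fold change against nt was -0.54 ± 0.14 (adjusted p = 0.0211), a call that was lost when any replicate number was left out, under RLE scaling, without the block, without mitochondrial genes and in limma. Gm17060 shares 88.8% identity with Npm1, and fell by 1.39 on the log2 scale (SE 0.20, adjusted p = 1.52e-07). Gm5611, at 94.9% identity, fell by 1.34 (SE 0.20). Gm14776 (83.0% identity) fell by 1.26 and Gm14681 (97.4%) by 0.87. By the rule used here Gm14681 and Gm5611 counted as near-identical copies of Npm1 while Gm17060 and Gm14776 did not, and how the counting shared reads among them is not given in the sources used here. The call of Gm14681 was lost without replicate 2, and those of the other 3 copies held without each replicate in turn. When the copies were summed with Npm1, an alternative added after seeing the data, the log2 fold change was -1.02 against nt (adjusted p = 7.79e-07) and -0.35 against the other siRNAs (adjusted p = 0.0912). Of 27 ribosome biogenesis genes tested, Npm1 was the only call against nt, beside 1.1% of all genes called lower, and the list's median log2 fold change was -0.004, which turned to 0.077 under RLE scaling. Against Mock the median was 0.40, with 2 genes higher, 1 lower and 10 of 27 below 0, and against the other siRNAs it was 0.21, with 1 higher, none lower and 7 below 0. Over all genes 0.465% were called higher and 3.09% lower against Mock, and 0.498% and 1.86% against the other siRNAs. The medians over all genes were -0.01 and 0.02.

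Hsp90aa1 encodes the stress-inducible cytosolic HSP90 chaperone (chr12:110690605-110702728). Its level was 5681, 5745 and 6262 CPM in siBptf, 11191, 9362 and 9738 CPM in nt and 8100 to 9511 CPM in Mock. The siBptf libraries were the lowest of the 11. The log2 fold change was -0.77 ± 0.14 against nt (adjusted p = 1.85e-05), -0.62 ± 0.13 against Mock and -0.48 ± 0.10 against the other siRNAs, and the call held without each replicate in turn. The copies Gm12346 (99.5% identity) and Gm5844 (98.5%) were lower by log2 fold changes of -0.69 and -0.60, and summing all 3 gave -0.72 (adjusted p = 0.000118). The call of Gm12346 was lost without replicate 3, and that of Gm5844 when any replicate number was left out. Of 16 metallothionein and heat shock genes, 2 were lower (1.1% of all genes) and the list's median log2 fold change was -0.05, against -0.04 over all genes. Against Mock 1 was higher (0.465% of all genes) and 1 lower (3.09%), and against the other siRNAs 2 were lower (1.86%). The other call against nt was Mt2, a metal-binding metallothionein. Mt2 measured 344, 502 and 806 CPM in siBptf against 699, 1107 and 1805 CPM in nt. The siBptf replicate 3 lay above the nt replicate 1, but within each replicate siBptf was lower, and the log2 fold change was -1.09 ± 0.22 (adjusted p = 0.000383), a call that was lost without replicate 3. Against Mock it was -0.52 ± 0.23 and did not pass (adjusted p = 0.228). Mt2 overlaps Gm45774 on the opposite strand, and whether the counting used strand is not given in the sources used here.

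The mitochondrial genome encodes subunits of the respiratory chain and ATP synthase, with ribosomal and transfer RNAs for their synthesis. Of 17 mitochondrially encoded genes tested, 9 were lower and none higher against nt (1.1% of all genes were called lower), with a median log2 fold change of -0.53. Of these 9 calls, 6 were kept under RLE scaling, 4 without the replicate block (mt-Rnr1, mt-Rnr2, mt-Nd4 and mt-Cytb) and 1 in limma (mt-Rnr2). The large ribosomal RNA mt-Rnr2 was at 56738, 42449 and 38652 CPM in siBptf and 105430, 85323 and 76008 CPM in nt. The small one, mt-Rnr1, was at 43311, 33057 and 38348 CPM in siBptf and 68344, 60766 and 77388 CPM in nt. In both, the siBptf libraries lay below all nt and all Mock libraries. The log2 fold changes were -0.96 ± 0.16 (adjusted p = 6.46e-06) and -0.85 ± 0.15 (adjusted p = 2.66e-05). Among the messenger RNAs, mt-Nd5 and mt-Nd4, subunits of complex I, had log2 fold changes of -0.78 ± 0.14 and -0.68 ± 0.13, and both calls held without each replicate in turn, as did those of the ribosomal RNAs, while that of mt-Nd5 was lost without the block. The calls of mt-Cytb, mt-Nd2, mt-Co1, mt-Nd1 and mt-Atp6 were each lost without at least 1 replicate number. The genes mt-Co3 and mt-Co2, subunits of cytochrome c oxidase, were at log2 fold changes of -0.43 (adjusted p = 0.076) and -0.17 (adjusted p = 0.803), and mt-Nd4l was at 0.55 (adjusted p = 0.421). Summed with its identical nuclear copy Gm28437, mt-Co3 passed against nt at -0.46 (adjusted p = 0.0412), and alone it passed against Mock at -0.98 (adjusted p = 1.29e-11). Of the 51 nuclear genes for respiratory chain subunits, none was called against nt or the other siRNAs, and their median log2 fold change against nt was -0.12. Against Mock 1 of the 51 was lower, beside 3.09% of all genes.

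**Figure D3:**
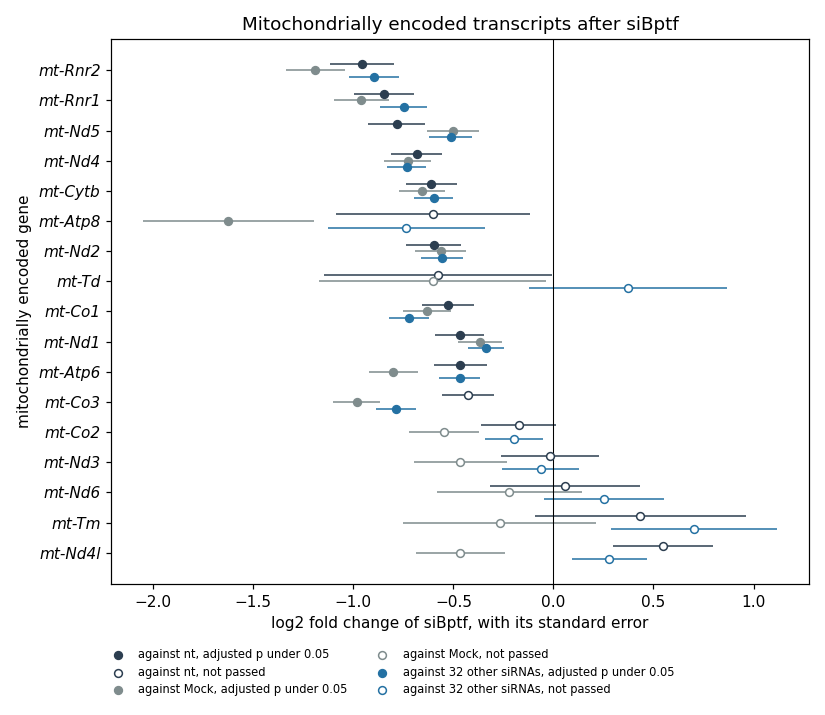
Log2 fold change of siBptf with its standard error for 17 mitochondrially encoded genes, against nt (dark), Mock (grey) and the 32 other siRNAs (blue), with filled points where the adjusted p was under 0.05. Against nt 9 genes were called lower (1.1% of all genes), against Mock 11 (3.09%) and against the other siRNAs 10 (1.86%). All 3 comparisons share the siBptf libraries.

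The same was seen in the share of all counts that fell on mitochondrially encoded genes. It was 19.3, 17.1 and 15.8% in siBptf, 26.3, 24.4 and 22.8% in nt and 22.9 to 28.6% in Mock. Among the transfected libraries of its own replicate, siBptf ranked 4 of 36, 1 of 36 and 2 of 34 from the lowest. The condition with the lowest mean share of all 35 transfected conditions was siIrx1, at 17.2%, followed by siBptf at 17.4% and siBrca1 at 18.5%. The mean share of the mitochondrial ribosomal RNAs alone was lower in siBrca1 (7.47%) and siIrx1 (7.70%) than in siBptf (8.20%). Untransfected cells had lower mean shares at Day00, Day01, Day02 and Day06, of 14.8, 11.5, 17.1 and 16.3%, which placed siBptf at 6 from the lowest of all 42 conditions. Because siBptf was also shallow, the 10 libraries of nearest depth were compared within each replicate. Their median shares were 27.1, 25.6 and 23.03%, and 1, 0 and 0 of the 10 lay below siBptf. The match in depth was one-sided in replicates 1 and 3, since siBptf ranked 2, 7 and 2 from the lowest in depth, and the nearest libraries reached 51785 counts in replicate 1 and 101865 in replicate 3. Depth and share had Spearman correlations of -0.20, -0.06 and -0.05 over the 36, 36 and 34 libraries. The part of depth in the low share of siBptf was not tested. With mitochondrial genes removed before scaling, an alternative added after seeing the data, 12 of the 35 genes called against nt were themselves among those removed, and 18 of the 23 still tested kept the call.

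**Figure D4:**
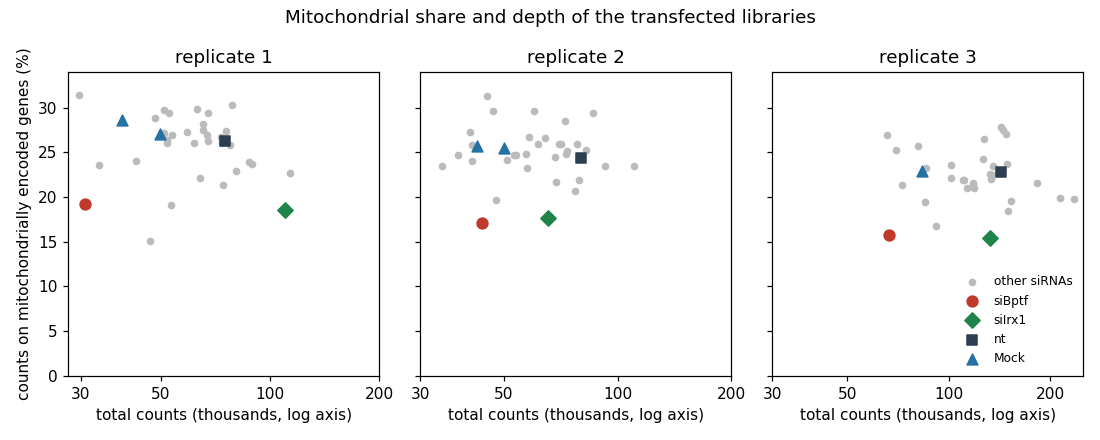
Share of counts on mitochondrially encoded genes (vertical, %) against total counts (horizontal, log axis) for the transfected libraries of each replicate. The siBptf libraries (red), at 15.8 to 19.3%, lie below the nt and Mock libraries in all 3 panels, and siIrx1 (green) lies at 15.4 to 18.5%.

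The cytoplasmic ribosome translates messenger RNA from the nucleus. Of its 73 protein genes tested, 2 were lower against nt (0 under RLE scaling), beside 1.1% of all genes, and none was higher, and 51 had a log2 fold change below 0 with a median of -0.28. Below 0 were 52.9% of all genes. More of the list passed against the other references, with 10 lower against Mock (3.09% of all genes), 8 against nt and Mock together (2.36%) and 8 against the other siRNAs (1.86%), of which counts RLE scaling gave 9, 6 and 6, and none was higher. Rpl11, a protein of the large subunit that also binds MDM2, was at 68.9, 114 and 228 CPM in siBptf and 316, 374 and 425 CPM in nt. The log2 fold change of -1.29 ± 0.36 passed (adjusted p = 0.0326), and the call was lost when any replicate number was left out. Rps4x, a small subunit protein with 7 near-identical copies, was lower by a log2 fold change of -0.58 ± 0.15 (adjusted p = 0.0161), and this call too was lost when any replicate number was left out. The copies Gm8292 of Rps24 and Gm14044 of Rpl27a were lower too, the first lost when any replicate number was left out and the second without replicates 2 or 3, and with each summed into its parent the log2 fold changes were -0.83 (adjusted p = 0.00663) and -0.83 (adjusted p = 0.00182) against nt. Against Mock the summed Rps24 was at -0.82 (adjusted p = 0.00208) and against the other siRNAs at -0.71 (adjusted p = 0.00189), whereas the summed Rpl27a did not pass, at -0.23 (adjusted p = 0.596) and -0.36 (adjusted p = 0.198). The share of counts on ribosomal protein genes was 3.99, 4.12 and 5.48% in siBptf and 4.41, 4.38 and 5.56% in nt.

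The remaining lower genes have varied roles. Prdx1, a peroxidase that removes hydrogen peroxide, was at 1274, 1163 and 1292 CPM in siBptf and 1898, 1810 and 2867 CPM in nt. Tpt1, the translationally controlled tumour protein TCTP, was at 964, 1482 and 1657 CPM in siBptf and 2098, 1914 and 2778 CPM in nt. For both genes the siBptf libraries were below all nt and all Mock libraries. The log2 fold changes were -0.84 ± 0.18 (adjusted p = 0.00143) for Prdx1 and -0.70 ± 0.17 (adjusted p = 0.0108) for Tpt1, and the calls were lost without replicate 3 and without replicates 1 or 3, respectively. Ccng1, a cyclin induced by p53, was at 689, 935 and 775 CPM against 1332, 1481 and 1225 CPM in nt, with a log2 fold change of -0.72 ± 0.20 (adjusted p = 0.0326). It did not pass against Mock or the other siRNAs and was lost when any replicate number was left out. The transcript RP24-389J11.1, which has no entry in the annotation used, fell by 1.05 on the log2 scale.

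Seed matches were searched for guides 1 and 2 only, since the remaining siRNA of the pool had no sequence here. Of the 12 called lower genes with an annotated 3′ UTR, Prdx1 was the only one with a match. It is shown with the match in capitals, at chr4:116700464-116700492 on the plus strand of mm10.
Prdx1 3′ UTR: aaggtgtgataGTACACAcctgtaatctc
Searched on the transcript strand, the seed match of guide 1 (GGTGTCT) was in the annotated 3′ UTR of 288 of 2401 tested genes (12.0%) and that of guide 2 (GTACACA) in 267 (11.1%). Of the 12 lower genes with an annotated 3′ UTR, 0 and 1 held them, which is no more than these shares of all tested genes. The median log2 fold change was 0.06 in genes with a match to guide 1 and 0.02 in those without, and likewise 0.06 and 0.02 for guide 2. A match is a stretch of letters and says nothing of binding.

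The 2 higher genes were called against nt and not against Mock. Oaz1 encodes ornithine decarboxylase antizyme, which restrains polyamine synthesis, and overlaps the microRNA gene Mir1982 on the same strand. It was at 482, 638 and 471 CPM in siBptf, 300, 194 and 245 CPM in nt and 317 to 549 CPM in Mock. The siBptf libraries lay above all nt libraries, while against Mock replicates 1 and 3 lay within its range and replicate 2 above it, with a log2 fold change of 1.1 ± 0.28 against nt (adjusted p = 0.0124) and 0.37 ± 0.25 against Mock (adjusted p = 0.517). Gm21738 was at 2238, 1345 and 2067 CPM in siBptf and 1132, 733 and 1193 CPM in nt, and its log2 fold change was 0.86 ± 0.22 against nt (adjusted p = 0.0137) but -0.45 ± 0.19 against Mock (adjusted p = 0.196). The call of Gm21738 was lost when any replicate number was left out, and that of Oaz1 without replicates 2 or 3. Both were lost without the block and with no filter beyond 1 count.

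Genes of the pluripotency and epithelial programmes could hardly be measured at this depth. In each list 3 genes passed the low-count filter, and none was called. No gene was called against nt among 30 G2/M genes, 12 S phase genes, 30 chromatin regulators, 10 glycolysis genes, 13 genes of the ATF4 and amino acid response, 7 of the low-oxygen response, 4 of antigen presentation, 3 interferon-stimulated genes, 10 nuclear noncoding RNAs and snoRNA hosts or 2 MYC-bound cofactors, and of mesoderm and endoderm genes 0 were tested. Over all genes 1.16% were called, the median log2 fold change was -0.04 and 52.9% were below 0. The ATF4 genes had a median of 0.56 with 2 of 13 below 0 and a smallest adjusted p of 0.261, the nuclear noncoding RNAs one of -0.45 with 7 of 10 below 0, the low-oxygen genes one of -0.38 with 5 of 7 below 0, the chromatin regulators one of 0.24 with 12 of 30 below 0 and the G2/M genes one of 0.079 with 10 of 30 below 0. Against Mock, where 3.55% of all genes were called, 1 G2/M gene was higher (median 0.55, 6 of 30 below 0), 1 chromatin regulator was higher and 1 lower, and 1 nuclear noncoding RNA was lower (median -0.49). Against the other siRNAs, where 2.36% were called, 2 chromatin regulators were higher and no gene of the other lists named here was called. Of 12 p53 targets, Ccng1 was the call, beside 1.16% of all genes called against nt. Cdkn1a, the cell cycle inhibitor p21, was named after its values were seen. It was at 826, 593 and 608 CPM in siBptf and 383, 404 and 343 CPM in nt. The groups did not overlap, but the log2 fold change of 0.81 ± 0.26 did not pass (adjusted p = 0.0957), and Mock ran from 254 to 800 CPM.

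Setting siBptf against other references asks how far the calls depend on the nt libraries. There were 107 calls against Mock (3.55% of genes), 14 of them higher (0.465%) and 93 lower (3.09%). Against nt and Mock together there were 83 (2.75%), 12 higher (0.398%) and 71 lower (2.36%), and against the other siRNAs 71 (2.36%), 15 higher (0.498%) and 56 lower (1.86%). The split of directions again turned on the setting, with 34 higher and 97 lower against Mock in DESeq2 and 113 higher and 37 lower in limma, and against the other siRNAs 22 higher and 44 lower under RLE scaling and 143 higher and 32 lower in limma. All of these comparisons share the siBptf libraries. Of the 35 calls against nt, 26 were also called against Mock and 24 against the other siRNAs. In all 3 comparisons 20 genes were called, each of them lower, among them Agtr2, Dcn, Spp1, Hsp90aa1, Prdx1, Tpt1, Rpl11 and the 9 mitochondrially encoded genes. Ccng1, Gm14044, Gm5844, Oaz1 and Gm21738 were called against nt alone. A further 30 genes were called against Mock and the other siRNAs but not against nt, 25 of them lower and 5 higher. Of the 25 lower genes, 17 were ribosomal protein genes or copies of them, such as Rpl7, Rplp1, Rpl41, Rps12 and Rps24, and 3 were mt-Co3 and nuclear copies of mitochondrial genes. Among the 3013 tested genes 73 were ribosomal protein genes, but copies were not counted over all of them. The 17 of 25 therefore have no share over all genes to be set against.

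Among those 30, named here after their values were seen, Itm2a, a membrane protein of mesenchymal and cartilage cells, was at 0, 22.8 and 15.2 CPM in siBptf, 50.0, 105 and 89.9 CPM in nt and 57.7 to 248 CPM in Mock. All siBptf libraries were below all control libraries. It rests on 2 counts, against 36 in Mock (9.62-fold lower, 2.48 to 82.5) and 21 in nt (4.97-fold lower, 1.21 to 43.7), and its log2 fold change was -3.36 against Mock (adjusted p = 0.000777) and -2.41 against nt (adjusted p = 0.179). Cadm1, a cell adhesion molecule, was at 172, 160 and 152 CPM in siBptf, 33.3, 120 and 16.3 CPM in nt and 0 to 28.8 CPM in Mock. With 22 counts against 12 in nt the ratio over all counts of the libraries was 3.87 (1.84 to 8.59), and with 2 counts in Mock it was 20.6 (5.06 to 180). These intervals, like those of Itm2a, cover counting error only and not the spread between libraries. The log2 fold change was 3.92 ± 0.86 against Mock (adjusted p = 0.000638) and 1.67 against nt (adjusted p = 0.25). Ncl, or nucleolin, a nucleolar protein of ribosomal RNA processing, was at 1619 to 1900 CPM in siBptf, 1565 to 1805 CPM in nt and 927 to 1216 CPM in Mock, so that siBptf and nt overlapped and both lay above Mock. Mgst1, a membrane glutathione transferase, had a log2 fold change of -1.50 ± 0.27 against Mock (adjusted p = 1.06e-05) and -0.84 against nt (adjusted p = 0.166).

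The time course of untransfected cells places the siBptf genes within reprogramming, and it shares no library with siBptf or nt. Between Day00 and Day06, 668 genes passed (22.2%), of which 321 (10.7%) were higher on the later day and 347 (11.5%) lower. RLE scaling shifted all genes by a median of -0.16 and gave 229 higher and 431 lower. Of the 33 genes lower in siBptf, 19 were higher at Day06 than at Day00, 3 were lower and 11 were not called. Dcn rose over the time course, from 22.4 ± 21.3 CPM at Day00 to 221 ± 30.2 CPM at Day06 (log2 fold change 3.18, adjusted p = 4.41e-07), and its 68.5 ± 22.8 CPM in siBptf lay below the Day06 level. Its list went the other way, with 18 of 27 fibroblast matrix genes lower at Day06 than at Day00, 3 higher and a median log2 fold change of -1.58. Mt2 rose from 51.8 ± 52.97 to 973 ± 155 CPM (log2 fold change 4.29, adjusted p = 4.11e-26). Npm1 rose with a log2 fold change of 1.35 (adjusted p = 2.9e-11). Spp1 went the other way, at a log2 fold change of -1.07 (adjusted p = 2.18e-05), with a low of 128 ± 28.1 CPM at Day01. Transfected and untransfected cells also differ in handling, so levels in the screen and in the time course were not tested against each other.

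**Figure D5:**
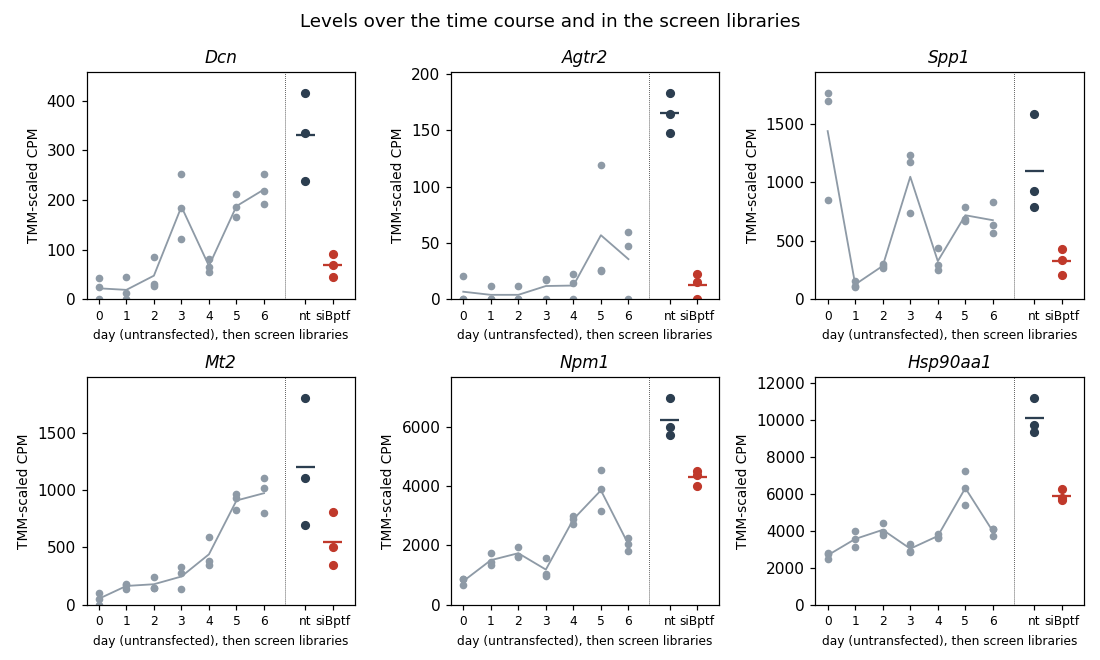
Levels of 6 genes called lower in siBptf over Day00 to Day06 of untransfected cells (grey points are libraries, the line joins the means), with the nt and siBptf libraries to the right of the dotted line, in TMM-scaled CPM. Dcn and Mt2 are higher at Day06 than at Day00 and Spp1 is lower, and for Npm1 and Hsp90aa1 the nt and siBptf libraries of the screen all lie above the Day06 libraries.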

How the data were processed

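CEL-Seq2 libraries were prepared in 3 pools, 1 per replicate number, and each library's condition was read from its column name. The authors mapped reads to mm10 with Bowtie2, removed duplicate molecules by UMI with the CEL-Seq2 pipeline, and deposited whole-number counts per gene of GENCODE vM13. They also deposited log2 CPM values with the batch regressed out. Members and gene lists were chosen with earlier results of these data known.

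From the deposited counts, 127 libraries of 42 conditions were fitted together in edgeR 4.0.16 (R 4.3.3) with TMM scaling, the low-count filter of edgeR by condition (3013 genes), 1 term per condition and the replicate number as a block, leaving 83 residual degrees of freedom. Quasi-likelihood p-values were adjusted by Benjamini-Hochberg over all tested genes, and called means an adjusted p under 0.05. The pairing of replicate numbers comes from the shared pool. Deviations from condition means correlated at a median of 0.10 between libraries of the same number and -0.07 otherwise, and for siBptf with nt at 0.03, 0.11 and 0.29. The count table has a pair of Mock columns of the same name for each replicate number. For replicate 3 the log2 values have 1 Mock column, which correlated at 0.93 with the second of the pair and 0.03 with the first.

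Named genes were Bptf, the genes of NURF and ISWI complexes, called members and up to 3 abundant members of each list, and up to 15 called genes per direction with at least 15 counts and the same sign in each replicate. Others were named after their values were seen. Gene positions and copies came from GENCODE vM21 on GRCm38, the same build as mm10, with copies found by sequence alignment. Depth and its precision are given with the results. Alternatives were RLE scaling, DESeq2 1.42.0, limma 3.58.1 on the log2 values, no block, other filters, fits to fewer libraries, leaving out each replicate number, other references, and 2 added after seeing the data (mitochondrial genes removed, copies summed).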

Additional observations from a re-analysis of the deposited data

Results flagged for a closer look

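In 2 of the 35 genes called against nt, 1 of the 5 Mock libraries stood apart from the other Mock libraries, and a test of this kind marks about 1 in 20 groups by chance. For Agtr2, 1 of the Mock libraries of replicate 2 was at 317 CPM with the next highest at 149 CPM, so that the gap was 0.785 of the whole range. For mt-Nd5, the Mock library of replicate 3 was at 9150 CPM and the next lowest at 13322 CPM, a gap of 0.733 of the range.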

How the results depend on the processing

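The siBptf libraries held 30798 to 66570 counts, and genes with few counts, such as Agtr2 and Itm2a, have wide intervals. Of the 35 genes called against nt, 11 kept the call without each replicate in turn, and 5 (Dcn, Spp1, Gm17060, Gm5611 and mt-Rnr2) kept it in every other setting that tested them. The cause of the changes below was not tested. Without the replicate block, the calls numbered 10 against nt, 45 against Mock, 30 against nt and Mock together and 23 against the other siRNAs, while for Day06 against Day00 the count stayed within 1.5 times. With no filter beyond 1 count they numbered 56 against nt, 61 against Mock and 430 for Day06 against Day00. With limma on the log2 values there were 18 against nt and 175 against the other siRNAs, and with mitochondrial genes removed 18 and 42, where 12 of the 35 calls against nt were removed and 18 of the other 23 were kept. Another control gave 107 calls (Mock) or 83 (nt and Mock) in place of 35. Leaving out a replicate number gave 13 (without replicate 3) to 23 calls against nt, 54 to 67 against Mock, 42 to 45 against nt and Mock together, 19 to 48 against the other siRNAs, and 343 (without replicate 3) to 564 for Day06 against Day00. RLE scaling and DESeq2 moved no total of calls by more than 1.5 times, but they moved counts in 1 direction: higher calls went from 2 to 10 against nt and from 14 to 34 against Mock in DESeq2, and the ribosomal protein genes called lower against nt from 2 to 0 under RLE scaling.

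Some directions turned. The log2 fold change of Bptf against nt was -0.19 with no filter beyond 1 count and ran from -0.71 to 0.68 without each replicate, and its count ratio ran from 0.972 to 1.75. Baz2b against nt was at 0.016 in limma and ran from -0.99 to 0.023 without each replicate. In limma, Gm14044, Rps4x and S100a6 against Mock were at 0.12, 0.12 and 0.074, and Ccng1 against the other siRNAs at 0.018. S100a6 for Day06 against Day00 was at 0.046 with no filter beyond 1 count and ran from -0.22 to 0.011 without each replicate. Under RLE scaling the medians of ribosome biogenesis, of metallothioneins and heat shock, and of MYC-bound cofactors against nt were 0.077, 0.035 and 0.018. The direction of each of the 35 calls against nt was the same in all settings that tested it.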
